A study of Mus musculus with 12 samples.

Results

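The autosomal transcriptome of P301S Tia1+/- cortex was compared with that of WT cortex. P301S Tia1+/- mice carry 1 copy of a human tau transgene (the 1N4R isoform with the P301S mutation, driven by the Prnp promoter in the PS19 line) and a single working allele of Tia1, so the comparison holds the combined change of the transgene and of Tia1 reduction. WT mice carry neither. Members were all genes placed on an autosome, 22600 of the 24062 gene symbols in the count table, in 3 P301S Tia1+/- and 3 WT libraries. Of these, 2839 had no count in any library and 14745 passed the filter on low counts and were tested. The mice were 9 months old, and RNA was taken from cortex, with 1 library per mouse. PS19 mice came on a mixed B6 and C3H background and were bred with Tia1-deficient mice on C57BL/6J, and animals with end-stage signs were left out of the sequencing. The series also holds 3 PS19 (P301S Tia1+/+) and 3 Tia1+/- libraries, which entered the fit so that all 4 groups shared 1 estimate of the spread.

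Tau binds microtubules in axons, and the P301S mutation, which causes a familial frontotemporal dementia, makes it prone to aggregate. TIA1 is an RNA-binding protein that nucleates stress granules, the cytoplasmic bodies in which untranslated mRNA collects when cells are stressed, and it also acts in pre-mRNA splicing. Cells that handle misfolded protein rely on chaperones, which in the endoplasmic reticulum (ER) are induced through the unfolded protein response and in the cytosol through the heat shock response.

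Libraries held between 11978962 and 13587922 counts in WT and between 15461503 and 16374226 in P301S Tia1+/- mice. The deposited genotype entries of the P301S Tia1+/- and Tia1+/- libraries name each other's group, and the library titles were followed here. Tia1, Mapt and Prnp did not settle whether the titles are right. Tia1 (chromosome 6, 86404219 to 86433405, GRCm38) had 72.6, 73.5 and 77.8 CPM (counts scaled to a common library size after TMM normalization) in P301S Tia1+/- and 93.8, 76.8 and 75.4 CPM in WT libraries, ranges that overlap (log2 fold change -0.14, SE 0.116, adjusted p = 0.58). The human transgene has no row of its own in the mouse table, and mouse Mapt (349 ± 11.2 against 346 ± 81.2 CPM, SD, n = 3) and Prnp (1480 ± 67.6 against 1638 ± 278 CPM) did not pass the test. Mapt was at 453 ± 12.2 CPM in PS19 and 434 ± 80.8 CPM in Tia1+/- libraries, and Prnp at 2100 ± 73 and 1527 ± 478 CPM. All P301S Tia1+/- libraries lay below all PS19 libraries for both genes, though neither passed (log2 fold changes -0.38 and -0.50, adjusted p = 0.254 and 0.22 in edgeR). Xist had 4351, 4352 and 5324 counts in the P301S Tia1+/- libraries and 0, 5 and 4 in the WT libraries, while Ddx3y had 1, 0 and 2 against 2112, 1938 and 1735 counts. The methods describe male mice, but this is the pattern of female mice in the P301S Tia1+/- libraries and of males in the WT libraries. For Tia1+/- against WT cortex the paper reports the same pattern and attributes it to Tia1 heterozygosity. Its PCR in other mice gave higher Xist and lower Ddx3y in Tia1+/- males, and higher Xist in Tia1+/- females. X-linked Kdm6a and Eif2s3x were also higher in P301S Tia1+/- (log2 fold changes 0.71 and 0.54, adjusted p = 0.0182 and 0.0112 in edgeR). Ddx3x and Kdm5c, also X-linked, did not pass (log2 fold changes 0.17 and 0.25, adjusted p = 0.254 and 0.27 in edgeR). The genotype and the sex-linked transcripts therefore change together, and which of them an autosomal difference belongs to cannot be told apart in these libraries. In 2 contrasts of the same fit the sex-linked transcripts match. There, 0 autosomal genes had an adjusted p under 0.05 in PS19 against WT, and 0 in P301S Tia1+/- against Tia1+/-. Where those transcripts differ, 97 passed in Tia1+/- against WT and 29 in P301S Tia1+/- against PS19. These counts are from edgeR, and no other tool was run on these contrasts. With DESeq2, the paper does report genes past the same threshold in PS19 against WT, where the count here was 0. For P301S Tia1+/- against WT, 923 autosomal genes passed in DESeq2's Wald test and 187 in edgeR. The source of the differences between these counts was not tested.

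The tissue label was checked against marker lists. Every one of the 12 autosomal cortical neuron markers was tested and none passed, but WT replicate 1 stood apart: Neurod6, a transcription factor of excitatory cortical neurons, had 8.32 CPM there, 107 and 105 CPM in the other WT libraries and 46.5 to 71.8 CPM in P301S Tia1+/-. The summed level of 12 olfactory bulb neuron markers was 1949 CPM in WT replicate 1, 413 and 170 CPM in WT replicates 2 and 3, and 1267 to 1488 CPM in all 3 P301S Tia1+/- libraries. None of these 12 markers passed the test, and all had a positive log2 fold change (median 0.73, and 2.75 without WT replicate 1). With the level of the bulb markers as a covariate, all 187 autosomal genes called below were called in the same direction, among 1290 in all, and results are also given with WT replicate 1 left out. Neither fit can tell tissue content from genotype, because the bulb level is itself uneven between the groups. Without WT replicate 1 it does not overlap between them. Among the libraries that share the fit, Tia1+/- replicate 3 stood apart by its 2876 CPM of striatal neuron markers, against 314 to 566 CPM in the other 11. In bulk tissue, fewer cells of a type and less RNA per cell cannot be told apart.

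Of the 14745 autosomal genes tested, 187 (1.27%) had an adjusted p under 0.05 in edgeR's quasi-likelihood test, 68 (0.461%) higher and 119 (0.807%) lower in P301S Tia1+/- cortex. In all 187 the 3 libraries of each genotype did not overlap, against 3433 genes (23.3%) among all those tested. Of the 187, 89 changed by under 1.5-fold and 30 by over 2-fold (14 higher and 16 lower). The median log2 fold change was 0.64 among the genes called higher, -0.56 among those called lower and 0.026 over all autosomal genes. An unadjusted p under 0.05 was found for 2656 genes (18%). For a single gene, exact permutation of 3 and 3 libraries gives no two-sided p below 0.1, so the calls rest on the spread estimated across genes and groups. In a fit of only the 6 libraries compared, 9 genes were called, and without WT replicate 1 the number was 1562 (836 higher and 726 lower). It fell to 6, 9 and 3 without P301S Tia1+/- replicates 1, 2 and 3 and to 4 without WT replicate 2, and was 213 without WT replicate 3.

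**Figure D1:**
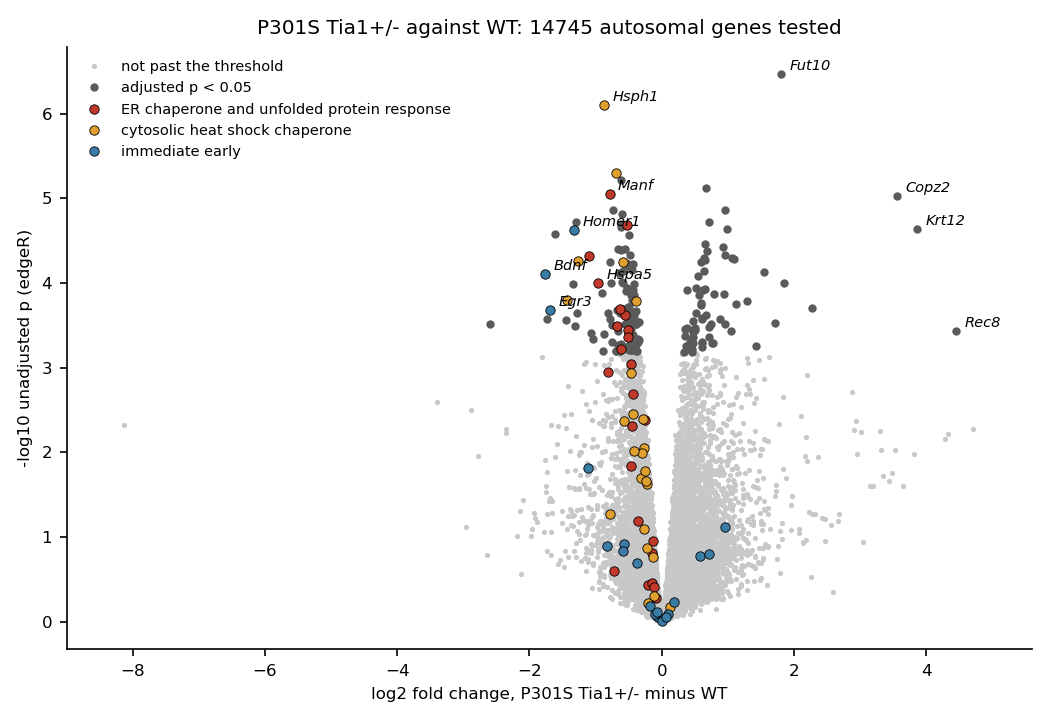
Each point is 1 of the 14745 autosomal genes tested, by log2 fold change (x axis, P301S Tia1+/- minus WT) and -log10 of the unadjusted p from edgeR (y axis). Grey genes did not pass an adjusted p of 0.05, dark genes did (187), and coloured points mark every tested member of the ER chaperone (24), heat shock chaperone (24) and immediate early (20) lists; all ER chaperone members lie left of 0.

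Chaperones of the ER formed the list with most calls. Of 24 tested genes of ER protein folding and the unfolded protein response, 10 fell and none rose, and all 24 had a log2 fold change below 0 (median -0.49). Among all autosomal genes tested 0.807% fell, and the median was 0.026. Their summed level was 3652 to 3840 CPM in the P301S Tia1+/- libraries and 4651 to 5651 CPM in WT, with no overlap, and WT replicate 1 was the highest. Hspa5, which encodes BiP, the main Hsp70 of the ER lumen and a sensor of unfolded protein, had 387, 401 and 350 CPM in P301S Tia1+/- and 984, 635 and 599 CPM in WT (log2 fold change -0.96, SE 0.163, adjusted p = 0.024). Its lowest WT library lay above its highest P301S Tia1+/- library, and without WT replicate 1 the log2 fold change was -0.69. Hsp90b1, the Hsp90 of the ER, had 497, 466 and 449 CPM against 778, 648 and 584 CPM (log2 fold change -0.51, adjusted p = 0.0385).

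Manf, a secreted neurotrophic factor induced by ER stress, had the smallest p of the list, with 43.0, 46.7 and 41.5 CPM in P301S Tia1+/- and 81.8, 76.0 and 68.7 CPM in WT (log2 fold change -0.79, SE 0.102, adjusted p = 0.0112). Sdf2l1, a cofactor of BiP, had 9.50, 9.60 and 8.92 CPM against 24.6, 15.9 and 19.8 CPM, the largest fall among the 10 (log2 fold change -1.11, SE 0.172, adjusted p = 0.0193). The protein disulfide isomerases, which form and rearrange disulfide bonds in new proteins, fell by 0.52 (Pdia3), 0.61 (Pdia4) and 0.52 (Pdia6) on the log2 scale. Pdia3 ranged from 155 to 167 CPM in P301S Tia1+/- and from 218 to 250 CPM in WT (adjusted p = 0.0145). The BiP co-chaperones Dnajb11 and Dnajc3 fell by 0.64 and 0.56. Xbp1, the transcription factor that is activated by splicing when unfolded protein accumulates, had 118, 107 and 102 CPM against 196, 165 and 161 CPM (log2 fold change -0.68, adjusted p = 0.0374). P301S Tia1+/- libraries were thus below WT for the folding enzymes and for 1 regulator of the response, while the sensors Ern1 (-0.15, adjusted p = 0.65) and Atf6 (-0.21, adjusted p = 0.667) and the factors Atf4 (-0.36, adjusted p = 0.312) and Ddit3 (-0.46, adjusted p = 0.159) did not pass. Without WT replicate 1, 14 members were called lower and the list median was -0.39. That fit called 726 autosomal genes lower in all, against 119 in the fit reported here. In the fit of the 6 libraries alone 0 members were called. With any 1 of the P301S Tia1+/- libraries or WT replicate 2 left out, 0 or 1 member was called.

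The promoters were searched for a regulatory element known from genes of the unfolded protein response. The ER stress response element has the letters CCAAT and CCACG with 9 bases of any kind between them, and was looked for on both strands in the 250 bases before each RefSeq start site (GRCm38.p6). The element was present in 17 of 11394 tested autosomal genes with a promoter in the table (0.149%), in 7 of 21 such genes of the ER list (33.3%) and in 4 of the 9 called ones (44.4%). It was in 4 of 98 genes called lower (4.08%) and in 0 of 51 called higher. Those 4 are the same 4 called genes of the ER list, so this share is not a separate result. All sites found in the list are shown, in 4 members that fell and in 3 that did not pass (Calr, Canx and Creld2, with log2 fold changes of -0.43, -0.14 and -0.81 and adjusted p of 0.0682, 0.397 and 0.0559). Capitals mark the match, with 5 bases on either side, written 5′ to 3′ on the strand of the gene. A site that begins CGTGG holds the element on the opposite strand. A match is a description of the letters only.
Hspa5 (chr2:34772020-34772048, plus strand): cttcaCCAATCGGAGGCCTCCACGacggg
Hsp90b1, upstream site (chr10:86705633-86705661, minus strand): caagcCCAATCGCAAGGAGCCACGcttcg
Hsp90b1, downstream site (chr10:86705528-86705556, minus strand): gagtgCGTGGTGAGGCACGATTGGtgagt
Pdia6 (chr12:17266486-17266514, plus strand): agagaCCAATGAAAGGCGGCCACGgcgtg
Dnajc3 (chr14:118937822-118937850, plus strand): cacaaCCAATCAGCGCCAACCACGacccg
Calr (chr8:84847070-84847098, minus strand): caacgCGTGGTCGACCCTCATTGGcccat
Canx (chr11:50325795-50325823, minus strand): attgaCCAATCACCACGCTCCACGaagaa
Creld2 (chr15:88819515-88819543, plus strand): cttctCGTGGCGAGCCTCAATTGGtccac

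Heat shock chaperones were lower as well. The list, drawn up for the cytosol, also holds the mitochondrial chaperonins Hspd1 and Hspe1, which did not pass. Of 24 tested members, 6 fell and none rose (0.807% of all autosomal genes fell), and 23 had a log2 fold change below 0 (median -0.30, against 0.026 over all). Hsph1, an Hsp110 that serves as nucleotide exchange factor for Hsp70, had 219, 240 and 217 CPM in P301S Tia1+/- and 435, 384 and 419 CPM in WT, an almost flat level within each group (log2 fold change -0.87, SE 0.0878, adjusted p = 0.00175). It was called under 19 of 20 alternative fits, between -0.92 and -0.83, the exception being the block by replicate number in 6 libraries. Chordc1, a co-chaperone of Hsp90, had 81.6, 73.8 and 72.1 CPM against 126, 130 and 111 CPM (log2 fold change -0.69, SE 0.0836, adjusted p = 0.00963). Dnaja1, an Hsp40 that hands substrates to Hsp70, ranged from 302 to 374 CPM against 485 to 528 CPM (log2 fold change -0.58), and Hspa4l, another Hsp110, from 206 to 220 CPM against 260.5 to 291 CPM (log2 fold change -0.39, adjusted p = 0.0302).

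The stress-inducible Hsp70 genes Hspa1a and Hspa1b are near-identical copies on chromosome 17, so how reads were divided between them is uncertain. Hspa1a had 8.30, 12.2 and 11.2 CPM against 30.6, 21.7 and 23.7 CPM (log2 fold change -1.26, SE 0.199, adjusted p = 0.0193). Hspa1b had 7.04, 11.3 and 11.1 CPM against 35.9, 17.3 and 26.2 CPM (log2 fold change -1.43, SE 0.255, adjusted p = 0.0299). The constitutive Hspa8 (3001, 2992 and 2722 against 4478, 3814 and 3435 CPM, log2 fold change -0.43, adjusted p = 0.0859) and the cytosolic Hsp90 genes Hsp90aa1 (-0.31, adjusted p = 0.183) and Hsp90ab1 (-0.25, adjusted p = 0.168) did not pass. Hsf1, the transcription factor of the heat shock response, had a log2 fold change of -0.29 (adjusted p = 0.136). The heat shock element searched was GAA, TTC and GAA with 2 bases of any kind between each, on both strands. It was in none of the 6 called members, which says only that these letters are not in the window searched. It was in 2 of 19 of the list, Hspd1 and Hspe1, against 0.474% of promoters. The windows of Hspd1 and Hspe1 overlap on opposite strands and hold the same site, so the 2 matches are not separate. Without WT replicate 1, 7 members were called lower, in a fit that called 726 autosomal genes lower in all, against 119 in the fit reported here. Without any 1 of the P301S Tia1+/- libraries or WT replicate 2, between 1 and 3 members were called, and in the fit of 6 libraries alone 1.

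**Figure D2:**
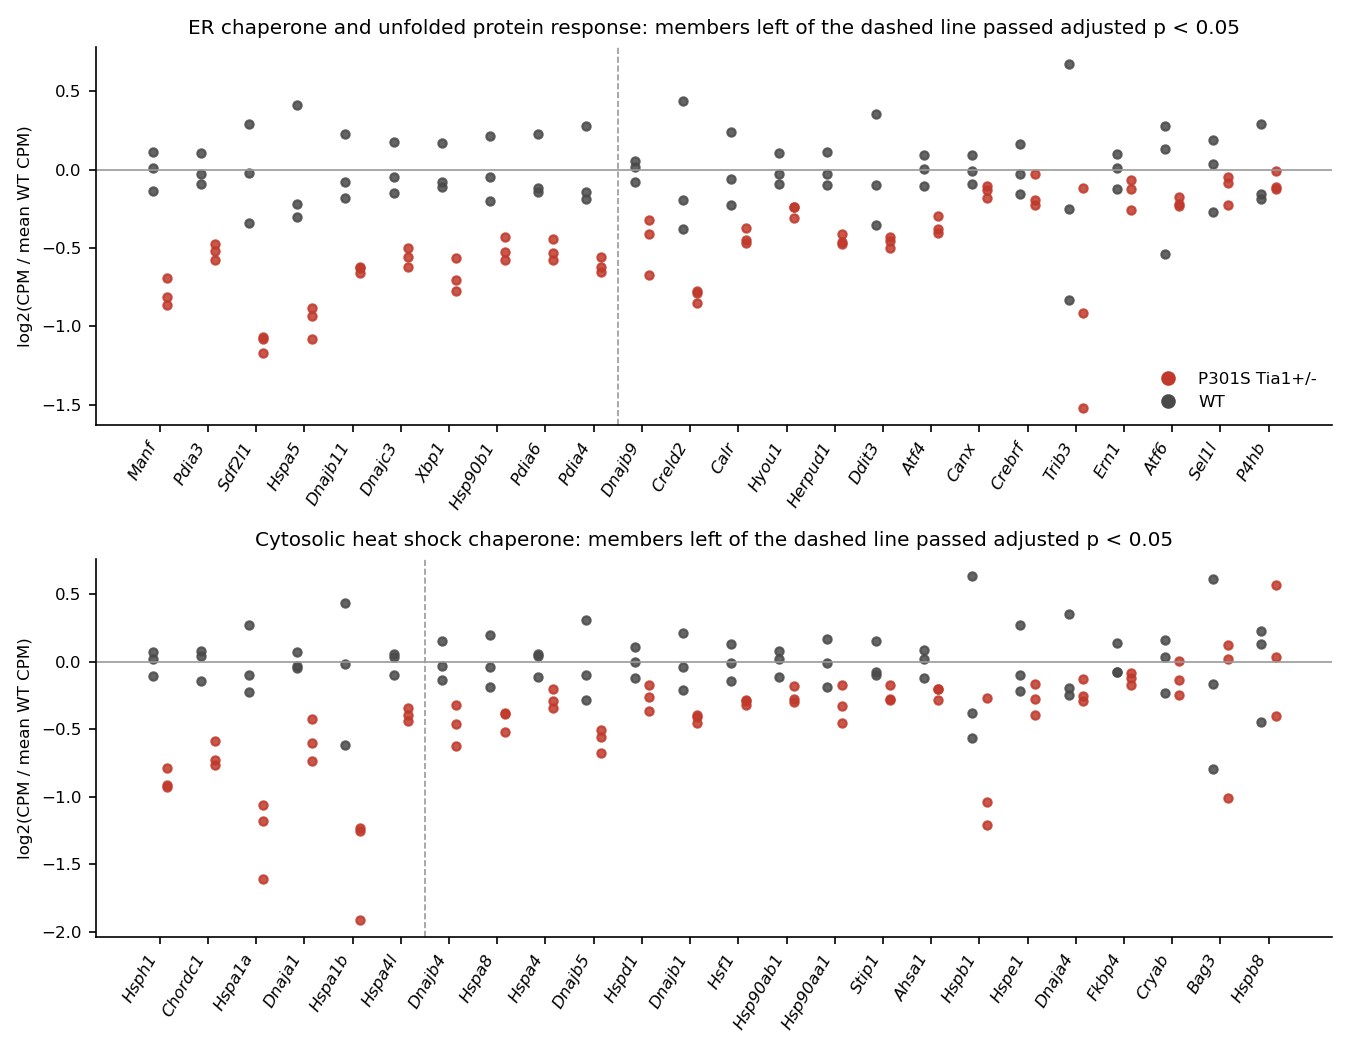
Level of each tested member of the ER chaperone list (top, 24 genes) and the heat shock list (bottom, 24 genes) as log2 of its CPM over the mean WT CPM (y axis), with 1 point per library (red, P301S Tia1+/-, grey, WT) and genes ordered by p. To the left of the dashed line stand the 10 and 6 members that passed, in which the red points lie below every grey point.

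Among genes that neurons switch on after synaptic activity, changes were large but few. Of 20 immediate early genes, 3 fell (Bdnf, Egr3 and Homer1), none rose, and the median log2 fold change was -0.089. The share that fell was 0.807% over all autosomal genes tested. Bdnf, the neurotrophin that acts on the receptor TrkB, had 35.6, 38.1 and 27.6 CPM in P301S Tia1+/- and 126, 116 and 103 CPM in WT, a 3.40-fold lower level (log2 fold change -1.77, SE 0.289, adjusted p = 0.021). Egr3, a zinc finger transcription factor of the same family as Egr1, had 37.2, 46.0 and 35.1 CPM against 126, 145 and 110 CPM, 3.22-fold lower (SE 0.311 on the log2 scale, adjusted p = 0.0331). Homer1, a scaffold of the postsynaptic density whose short form is induced by activity, had 270.5, 276 and 240.1 CPM against 611, 743 and 612 CPM, 2.50-fold lower (log2 fold change -1.32, SE 0.189, adjusted p = 0.0145). For all 3 genes the groups were far apart, and their log2 fold changes without WT replicate 1 were -1.69, -1.69 and -1.36. Without P301S Tia1+/- replicate 3 they kept their direction but were not called (adjusted p = 0.121 for Bdnf, 0.151 for Egr3 and 0.0971 for Homer1), nor were they without P301S Tia1+/- replicate 1 or 2 or WT replicate 2. The other 17 members did not pass, and 13 of them overlapped between the groups. Fos had 56.2 to 68.0 against 60.0 to 74.1 CPM (log2 fold change -0.067, adjusted p = 0.945), and Junb and Nr4a1 had log2 fold changes of 0.19 and 0.093. Arc, whose levels did not overlap (235 to 275 against 327 to 554 CPM), had a log2 fold change of -0.83 with an adjusted p of 0.417.

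Other large falls lay outside the lists. Ptgs2, the inducible cyclooxygenase, had 17.7, 22.0 and 16.9 CPM in P301S Tia1+/- and 74.0, 57.7 and 55.8 CPM in WT (3.32-fold lower, SE 0.328 on the log2 scale, adjusted p = 0.0357). Dusp4, a phosphatase of MAP kinases, had 10.9, 12.7 and 12.6 CPM against 29.1, 30.8 and 31.7 CPM (2.53-fold lower, adjusted p = 0.024). Ccnf, which encodes cyclin F, the substrate receptor of a ubiquitin ligase, had 5.91, 4.38 and 5.12 CPM against 21.9, 13.3 and 11.9 CPM (3.06-fold lower, adjusted p = 0.0153). Nefm, the medium neurofilament subunit of axons, was even in P301S Tia1+/- (36.8, 41.1 and 38.2 CPM) and uneven in WT (54.7, 115 and 148 CPM), with WT replicate 1 nearest to the P301S Tia1+/- level (log2 fold change -1.45, adjusted p = 0.0358, and -1.76 without that library). The transcription factor Bach2 had 4.78, 4.56 and 6.13 CPM against 18.2, 11.0 and 9.35 CPM (log2 fold change -1.31, and -0.97 without WT replicate 1). Klf5, another transcription factor, had 1.57, 1.80 and 1.67 CPM against 2.80, 4.48 and 4.94 CPM (log2 fold change -1.28, adjusted p = 0.0331). AI414108, with 20.6, 24.7 and 23.5 CPM against 57.1, 55.7 and 56.7 CPM (log2 fold change -1.30), is an older symbol of Igsf9b, which is listed separately (-1.07, adjusted p = 0.0398), so how their reads were divided is uncertain. The largest fall, in 1700123L14Rik, rested on 3, 8 and 2 counts against 18, 21 and 22 counts (log2 fold change -2.59, SE 0.5, adjusted p = 0.0363).

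The largest rises were in genes of low level. Rec8, a cohesin subunit of meiosis, had 23, 25 and 77 counts in P301S Tia1+/- and 3, 1 and 0 counts in WT (log2 fold change 4.45, SE 0.879, adjusted p = 0.0385). Krt12, a keratin known from the cornea, had 48.4, 22.3 and 26.6 CPM against 1.36, 1.61 and 3.65 CPM (log2 fold change 3.86, SE 0.552, adjusted p = 0.0145), and Copz2, a coatomer subunit, had 4.28, 2.04 and 2.44 CPM against 0.240, 0.169 and 0.304 CPM (log2 fold change 3.56, adjusted p = 0.0112). For each of them the lowest P301S Tia1+/- library lay well above the highest WT library, but the P301S Tia1+/- libraries themselves differed more than 2-fold for Rec8, Krt12 and Copz2.

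Fut10, a fucosyltransferase gene on chromosome 8 (31187331 to 31261738), had the smallest p of all autosomal genes, with 10.5, 11.5 and 12.3 CPM in P301S Tia1+/- and 3.44, 2.96 and 3.35 CPM in WT (3.50-fold higher, log2 fold change 1.81, SE 0.167, adjusted p = 0.00088). It was called under 19 of 20 alternative fits, again with the block in 6 libraries as the exception. Its mean was 9.01 ± 1.09 CPM (SD, n = 3) in Tia1+/- libraries, which also hold Xist, and 3.48 ± 0.588 CPM in PS19 libraries, which hold Y-linked transcripts (P301S Tia1+/- minus PS19: log2 fold change 1.70, adjusted p = 0.00133). Sox2ot, a long non-coding RNA that overlaps Sox2, followed the same order: 19.9, 18.1 and 21.5 CPM in P301S Tia1+/-, 8.96, 6.17 and 5.25 CPM in WT (log2 fold change 1.54, adjusted p = 0.0209), a mean of 18.4 ± 5.17 in Tia1+/- and 5.91 ± 1.34 CPM in PS19 (against PS19, 1.75, adjusted p = 0.0271). Pappa2, a protease that frees insulin-like growth factor from its binding proteins, had 5.16, 4.98 and 4.70 CPM in P301S Tia1+/- and 2.0, 1.78 and 0.760 CPM in WT (log2 fold change 1.71, adjusted p = 0.0363). Its mean was 4.48 ± 1.13 CPM in PS19 and 1.22 ± 0.232 CPM in Tia1+/-, but neither PS19 against WT (adjusted p = 0.157) nor P301S Tia1+/- against Tia1+/- (adjusted p = 0.146) passed.

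The Wnt ligands Wnt7b and Wnt1 were also higher. Wnt7b had 34.5, 37.8 and 28.7 CPM against 10.7, 13.9 and 16.7 CPM (2.44-fold, adjusted p = 0.0299), and Wnt1, at the edge of detection, 1.13, 1.38 and 1.19 CPM against 0.480, 0.508 and 0.380 CPM (adjusted p = 0.0469). Cdk18, a kinase of the PCTAIRE family, rose 2.19-fold and Lsp1, an actin-binding protein of leukocytes, 2.13-fold, and the potassium channel gene Kcnq1 (1.2 to 1.51 against 0.0846 to 0.380 CPM) and Klhl38 (1.95 to 2.74 against 0.508 to 0.80 CPM) rose from a low level. That the groups do not overlap in these genes was part of the rule by which they were chosen.

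**Figure D3:**
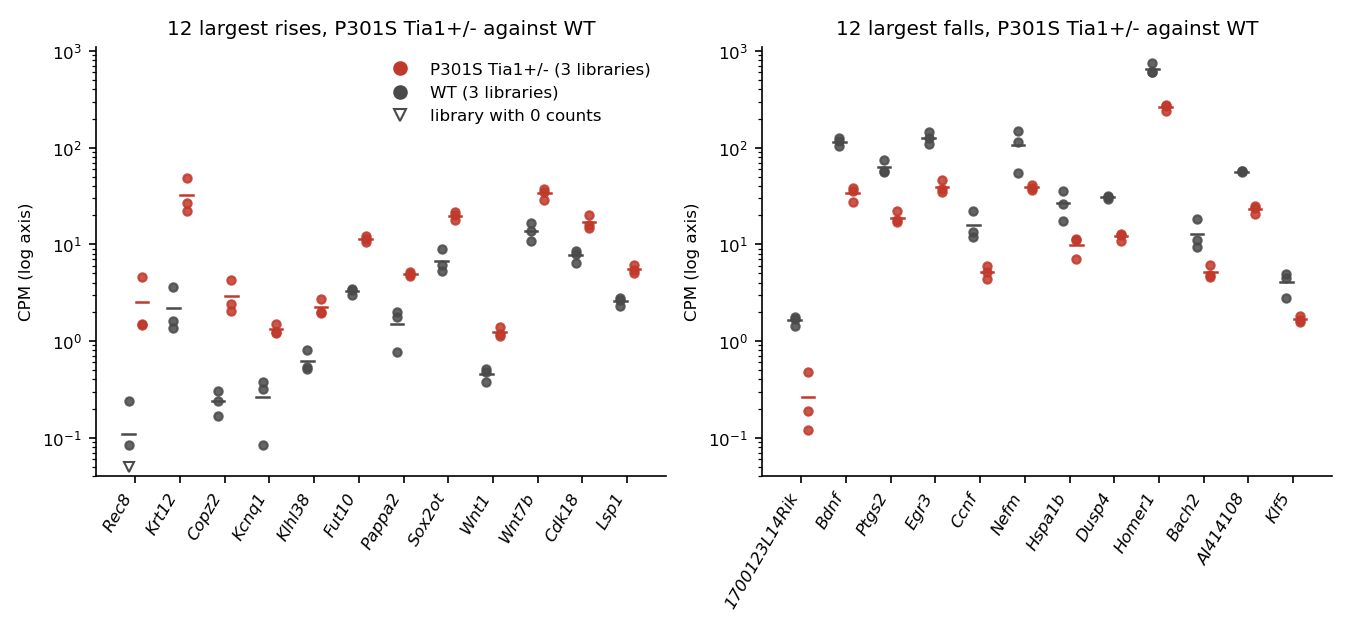
CPM (log axis) in each library for the 12 autosomal genes with the largest rises (left) and the 12 with the largest falls (right) among those that passed; red points are the 3 P301S Tia1+/- and grey points the 3 WT libraries, and lines are means. An open triangle marks the WT library with 0 counts of Rec8. All 24 genes were chosen from those whose groups do not overlap, and the genes that fell lie mostly at higher levels than those that rose.

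Among genes with a mean of at least 20 CPM, those with the smallest p that rose changed by less than 2-fold. Icam5, a cell adhesion molecule of forebrain dendrites, had 165, 178 and 174 CPM against 118, 117 and 98.6 CPM (log2 fold change 0.63, SE 0.0991, adjusted p = 0.0193). Pik3ip1, an inhibitor of PI3 kinase, had 41.9, 36.2 and 41.8 CPM against 23.1, 26.5 and 23.7 CPM (0.71, adjusted p = 0.0145), and Adck3, which acts in coenzyme Q synthesis, 47.9, 48.0 and 50.3 CPM against 19.5, 26.1 and 31.2 CPM (0.93, adjusted p = 0.0188). Chid1 (0.65) and 1600014C10Rik (0.67) rose by a like amount. Of those that fell, Ppig, a cyclophilin of nuclear speckles, had 83.0, 83.5 and 81.3 CPM against 125, 137 and 120 CPM (-0.62, SE 0.0769, adjusted p = 0.0105). Smad3, which carries TGF-beta signals to the nucleus, had 57.7, 66.2 and 57.9 CPM against 91.7, 103 and 110 CPM (-0.74, adjusted p = 0.0142).

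RNA-binding proteins are of interest because TIA1 is one. Of 43 hnRNP, SR and Rbm splicing regulators on autosomes, 3 fell and none rose, where 0.807% of all autosomal genes tested fell. Hnrnpu, a nuclear scaffold protein that binds RNA, had 385, 398 and 384 CPM against 523, 552 and 511 CPM (log2 fold change -0.44, SE 0.0702, adjusted p = 0.0193). Srsf11, an SR-like splicing factor, had 68.7, 67.3 and 63.6 CPM against 92.3, 88.2 and 85.2 CPM (-0.41, adjusted p = 0.024), and Rbm17, a spliceosome component, 51.8, 49.7 and 50.1 CPM against 66.0, 65.6 and 62.4 CPM (-0.35, adjusted p = 0.0429). The list as a whole had 38 members below 0, a median log2 fold change of -0.26 and 23 members with an unadjusted p under 0.05. Over all autosomal genes tested the median was 0.026, and 18% had an unadjusted p under 0.05. Cirbp, the cold-inducible RNA-binding protein, was 1 of 5 above 0 (0.39, adjusted p = 0.058). Without WT replicate 1 the median was -0.16.

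In the spliceosomal snRNP and LSm list, 1 of 37 members fell, Prpf3 of the U4/U6 snRNP (16.7, 17.2 and 16.8 against 23.1, 22.3 and 23.7 CPM, log2 fold change -0.45, adjusted p = 0.0491). Over all autosomal genes tested, 0.807% fell. Snrnp70, the U1 protein, had 79.6, 94.3 and 84.1 against 114, 117 and 111 CPM and did not pass (-0.41, adjusted p = 0.0506). None of the 23 autosomal genes of the stress granule list passed, although 22 had a log2 fold change below 0 (median -0.16, against 0.026 over all autosomal genes). Atxn2 had the smallest p (31.3, 39.8 and 35.2 against 47.4, 55.7 and 54.3 CPM, -0.57, adjusted p = 0.0639), and Tial1, the paralog of Tia1, had -0.31 (adjusted p = 0.172).

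Genes of the circadian clock changed in both directions. Of 18 tested members, 2 fell and 1 rose, where 0.807% of all autosomal genes tested fell and 0.461% rose. The activators Arntl, which encodes BMAL1, and Clock, its partner, fell, and Dbp, a target of the pair, rose. Arntl had 32.3, 35.5 and 31.6 CPM in P301S Tia1+/- and a flat 52.3, 52.3 and 52.9 CPM in WT (log2 fold change -0.66, SE 0.131, adjusted p = 0.0385). Clock had 193, 191 and 184 CPM against 261, 254 and 225 CPM (-0.38, adjusted p = 0.0491, and -0.25 with adjusted p = 0.147 after GC and length offsets). Dbp had 49.4, 45.8 and 46.6 CPM against 21.5, 29.8 and 33.3 CPM (0.74, adjusted p = 0.0363, and 0.59 with adjusted p = 0.0672 after the offsets). The remaining 15 members did not pass, among them Per2 (-0.62, adjusted p = 0.0662) and Nr1d1 (0.32, adjusted p = 0.274). The hour at which tissue was taken is not given in the sources used here.

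Of the 22 pathway lists, 15 had no member past the threshold, among them the complement, interferon response, antigen presentation, reactive gliosis, synaptic vesicle, GABA receptor, ribosomal protein, oxidative phosphorylation and proteasome lists. In the glutamate receptor and postsynaptic list, Homer1 was the only 1 of 22 members called, where 1.27% of all autosomal genes tested were called. Its next members by p were Dlgap2 (-0.35, adjusted p = 0.224) and Camk2b (0.32, adjusted p = 0.24). In the tau and APP list, Aplp1, a relative of APP, had the smallest p (579, 600 and 566 against 444, 472 and 501 CPM, log2 fold change 0.30, adjusted p = 0.0994). Of 26 lysosome and autophagy genes, 24 had a log2 fold change above 0 (median 0.13, against 0.026 over all autosomal genes), and Grn, which encodes progranulin, a lysosomal glycoprotein, had 29.2, 36.0 and 37.7 CPM against 25.0, 21.9 and 25.6 CPM (0.51, adjusted p = 0.144). The groups did not overlap for Grn, but it did not pass.

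Members with the smallest p in the other lists give the size of what was seen there. In the cholesterol synthesis list, Insig1, which holds back sterol synthesis, had 152, 138 and 142 against 104, 88.9 and 111 CPM (log2 fold change 0.51, adjusted p = 0.0682), and Idi1 had -0.34 (adjusted p = 0.192). Sv2a, a synaptic vesicle glycoprotein, had 414, 429 and 433 against 369, 351 and 352 CPM (0.25, adjusted p = 0.0825). Slc17a6, the vesicular glutamate transporter of subcortical neurons, had -0.75 (adjusted p = 0.27). Syt2, a calcium sensor of release, was at 7.36 to 10.8 CPM in P301S Tia1+/- and at 2.56, 33.7 and 52.9 CPM in WT, with WT replicate 1 below all others (-1.67, adjusted p = 0.281). Among proteasome subunits Psmd12 (-0.34, adjusted p = 0.0944), Psmc6 (-0.31) and Psmb5 (0.23) came first, among ribosomal proteins Rps24 (-0.32, adjusted p = 0.138), Rpl23 (-0.22) and Rpl35 (-0.18), and in oxidative phosphorylation Cyc1 (0.23, adjusted p = 0.128), Sdhc (0.28) and Cox7c (-0.18).

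No member passed in the inflammatory lists either. The complement genes C1ra (-1.44, adjusted p = 0.344) and Itgam (0.39) led that list, and Xaf1 (-0.37, adjusted p = 0.465), Ifit2 (0.25) and Ifi27 (0.47) the interferon list. In antigen presentation H2-D1 (0.75, adjusted p = 0.422), Tap1 (0.77) and H2-T23 (-0.42) came first, and in reactive gliosis the autosomal Osmr (-0.44, adjusted p = 0.555) and Cd109 (0.68). Of the 6 libraries compared, WT replicate 1 had the highest summed level in the gliosis and interferon lists (458 and 279 CPM), and without it the medians were 0.88 and 0.79 in place of 0.19 and 0.16. Of the GABA receptor subunits, Gabra5 had 0.64 (adjusted p = 0.121). Of the neuropeptide genes and receptors, Oprd1 had 0.28 (adjusted p = 0.183), Pomc 1.03 and Oprk1 0.99. Of the histone genes, Hist1h1c had 0.67 (adjusted p = 0.187), Hist1h4i -0.77 and Hist1h2ac 1.06. The remaining named members were Mark1 (-0.32, adjusted p = 0.118) of the tau and APP list, Ctsl (0.28, adjusted p = 0.227) and Atp6v1b2 (0.23) of the lysosome list, Usp10 (-0.33, adjusted p = 0.124) of the stress granule list and Snrpd1 (-0.49, adjusted p = 0.068) of the snRNP list.

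None of the cell type marker lists held a called gene. The 12 autosomal markers of homeostatic microglia were all above 0 (median 0.38), with a summed level of 428 to 458 CPM against 304 to 377 CPM in WT, and 9 of the 12 were higher without overlap between the groups, against 12.6% of all autosomal genes tested. Fcrls (1.31, adjusted p = 0.053) and Olfml3 (0.92, adjusted p = 0.0944) had the smallest p. Of 18 markers of disease-associated microglia, 16 were above 0 (median 0.14), and the summed levels overlapped (2548 to 2720 against 2104 to 3021 CPM). The astrocyte markers had a median of 0.038 and summed levels that overlapped, and the oligodendrocyte markers a median of 0.32 with WT replicate 1 lowest (989 CPM, against 1658 and 1806 CPM in the other WT and 1632 to 1732 CPM in the P301S Tia1+/- libraries).

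The PS19 and Tia1+/- libraries show where the P301S Tia1+/- level stood between the single genotypes. For the ER chaperone list, the median log2 fold change against the same WT libraries was -0.37 in PS19, -0.39 in Tia1+/- and -0.49 in P301S Tia1+/-. Against WT, 0 of its members were called in PS19 and 7 in Tia1+/-, which differs from WT in the sex-linked transcripts as well. These counts were 0 and 5 in the heat shock list and 0 and 2 in the immediate early list. Over all 14745 autosomal genes tested they were 0 and 97. Since the WT libraries are shared, these values are not independent of each other. Tested directly, none of the 24 members differed between P301S Tia1+/- and PS19 (median -0.086) or between P301S Tia1+/- and Tia1+/- (median -0.027). The heat shock list had medians of -0.26, -0.34 and -0.30 in the same order, and Hsph1 was its only member that was lower in P301S Tia1+/- than in PS19 mice (225 ± 12.7 against 326 ± 3.62 CPM, SD, n = 3, log2 fold change -0.53, adjusted p = 0.044). The immediate early list had medians of -0.57 in PS19, -0.69 in Tia1+/- and -0.089 in P301S Tia1+/-, and none of its members passed in the direct tests. Bdnf had a mean of 65.6 ± 13 CPM in PS19 and 48.2 ± 21 CPM in Tia1+/- mice, between its levels in WT and P301S Tia1+/-. Klf5 was at 5.04 CPM on average in both single genotypes, 4.08 CPM in WT and 1.68 CPM in P301S Tia1+/-. Its log2 fold change was -1.58 against PS19 (adjusted p = 0.0273) and -1.58 against Tia1+/-, which did not pass (adjusted p = 0.146), and neither single genotype differed from WT past the threshold (adjusted p = 0.51 and 0.491).

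**Figure D4:**
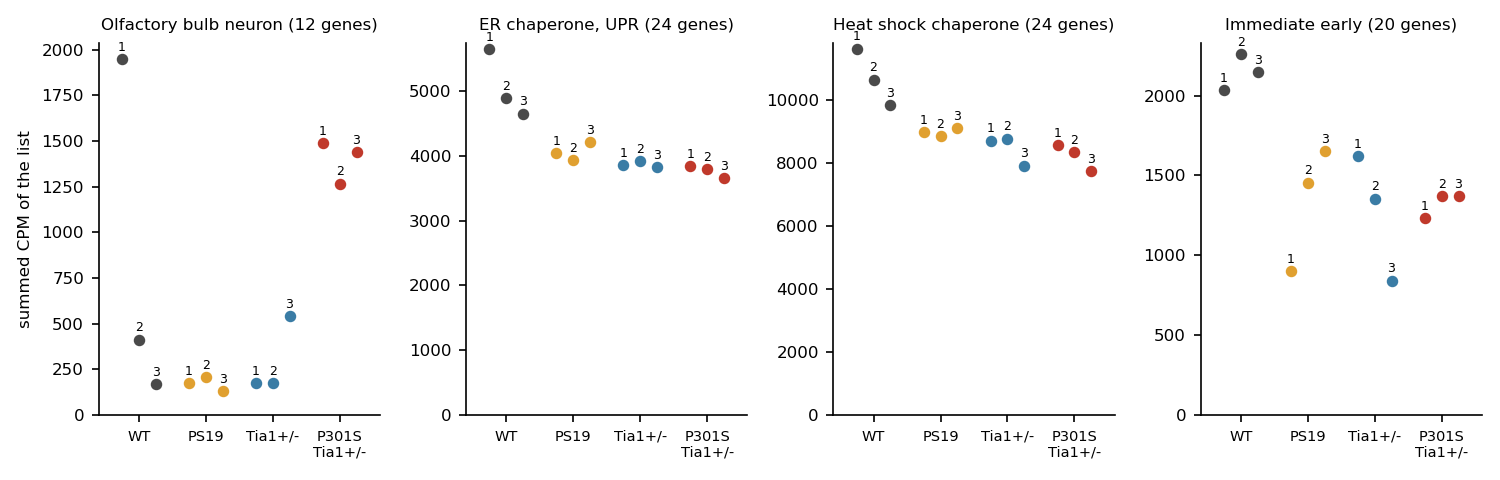
Summed CPM (y axis, from 0) of the tested autosomal members of 4 lists in each of the 12 libraries, labelled by replicate number, for WT, PS19, Tia1+/- and P301S Tia1+/- mice. In the chaperone and immediate early panels the P301S Tia1+/- points lie below all WT points and near the PS19 and Tia1+/- points, and in the olfactory bulb panel P301S Tia1+/- and WT replicate 1 lie above the rest.

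Called genes were spread over all autosomes, with shares per chromosome between 0.456% and 2.26% of tested genes. Within 10 Mb of Tia1, where sequence linked to the targeted allele would be carried, 1 of 140 tested genes was called (0.714%), 1700123L14Rik, and 28 (20%) had an unadjusted p under 0.05, against 18% of all autosomal genes. The median GC content of the longest annotated transcript was 42.9% for genes called lower, 53.3% for genes called higher and 49.8% for all tested, and the median lengths were 4314, 3033 and 3382 bases. With offsets that remove each library's trend on GC content and length, 141 genes were called (33 higher and 108 lower), 99 of them among the 187, and 13 ER chaperone and 5 heat shock genes were among those lower. Protein-coding genes made up 184 of the 187.

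**Figure D5:**
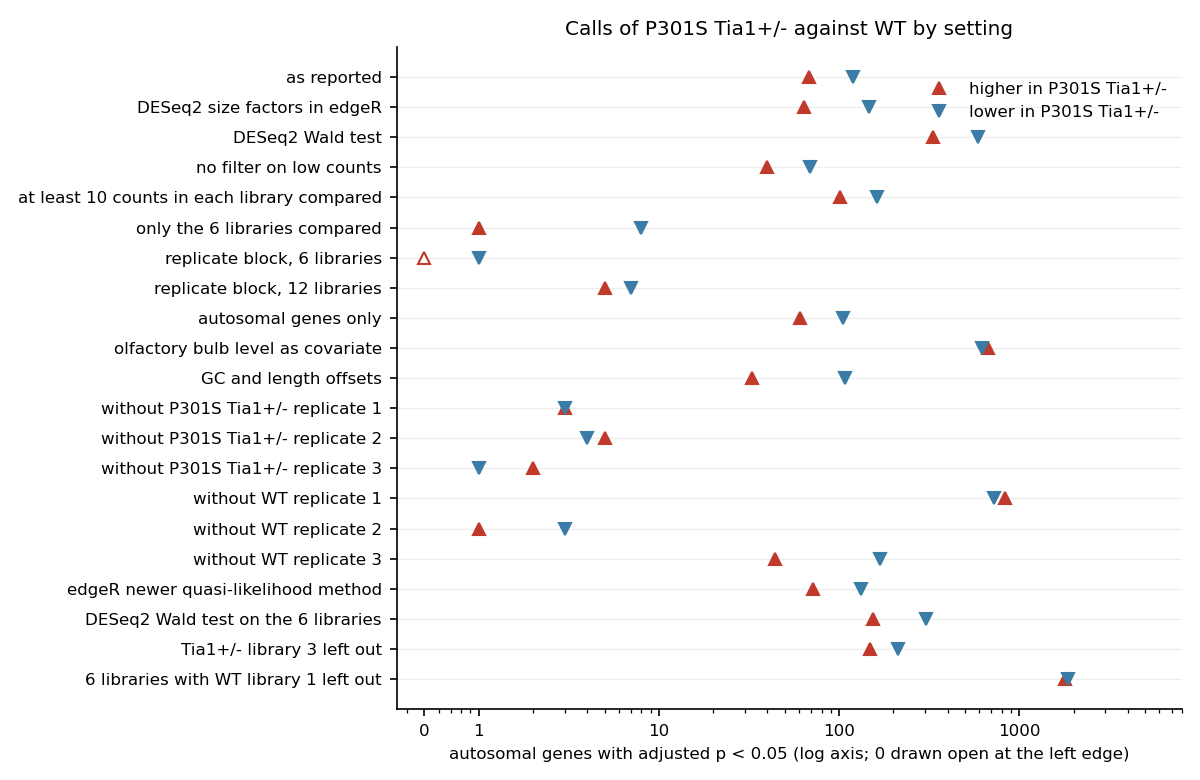
Number of autosomal genes called higher and lower (x axis, log scale, open points at the left for 0) under the fit reported here and under each alternative (y axis). The count of 187 lies between 1, with a block by replicate number in 6 libraries, and 3664, with 6 libraries less WT replicate 1.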

How the data were processed

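Total RNA from cortex was made into stranded paired-end libraries. The authors aligned reads to mm10 with TopHat2 2.0.6, per the labels, and deposited raw counts per gene symbol from featureCounts, without normalization; the gene annotation and the strand setting are not given in the sources used here, so genes that overlap may share reads. Libraries were grouped by title. Counts were normalized with TMM and tested in edgeR 4.0.16 (R 4.3.3; glmQLFit and glmQLFTest after filterByExpr) with all 12 libraries and 4 group means, the contrast being P301S Tia1+/- minus WT, and p was adjusted by the Benjamini-Hochberg method over all 15440 genes tested, with a threshold of 0.05. SE is the log2 fold change over the root of F. Positions, GC content and length came from GENCODE M21 (GRCm38), with 934 symbols matched by an older name and 370 unmatched; promoters came from RefSeq. The self-test on simulated counts was passed, which required the right sign and size of known changes. Its counts were drawn independently from a common profile, so it does not cover uneven tissue content or a library that stands apart. Replicates are separate mice; p-values measure only the spread between these libraries.

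The members, gene lists and alternatives were chosen with earlier results of these data known. Genes named are the 12 largest rises and 12 largest falls among called genes whose groups do not overlap, the 5 with the smallest p in each direction at a mean of at least 20 CPM, Tia1, Mapt, Prnp, sex-linked checks, and the 3 with the smallest p in each pathway list (some of these are not reported here); other members of the lists were named after their values were seen. Same-numbered P301S Tia1+/- and WT libraries had correlations of residuals of -0.18, 0.20 and -0.23, and were therefore not treated as pairs. The alternatives were DESeq2 1.42.0 size factors or its Wald test, other filters, fewer libraries, a block, an olfactory bulb covariate, and GC and length offsets.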

Additional observations from a re-analysis of the deposited data

How the results depend on the processing

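No autosomal call held under all 20 alternatives (0 of 187), while 186 of the 187 kept their direction under every one; C230091D08Rik was the exception, at 0.022 after GC and length offsets. The 187 calls (68 higher, 119 lower) became 210 with DESeq2 size factors, 205 with edgeR's newer quasi-likelihood method, 166 with autosomal genes only, 263 with at least 10 counts in each library compared, 109 (40 and 69) without a filter and 141 (33 and 108) with GC and length offsets. DESeq2's Wald test gave 923 (330 and 593) on 12 libraries and 458 (155 and 303) on 6, the olfactory bulb covariate 1290 (669 and 621), and leaving out Tia1+/- library 3 360 (148 and 212). Only the 6 libraries gave 9 (1 and 8), and those 6 less WT library 1 gave 3664 (1790 and 1874). Leaving out each P301S Tia1+/- or WT library gave 3 to 1562 (1 to 836 higher and 1 to 726 lower), 1562 without WT library 1 and 3 without P301S Tia1+/- library 3; all 187 calls were among the 1562. The ER chaperone count of 10 ranged from 0 to 14 when 1 library was left out, was 0 with 6 libraries and 16 with 6 less WT library 1. The heat shock count of 6 ranged from 1 to 7, was 12 with DESeq2's Wald test and with 6 libraries less WT library 1, 13 with the bulb covariate and 1 with 6 libraries. The count within 10 Mb of Tia1 was 1, and 0 to 13 when 1 library was left out, 6 with DESeq2's Wald test, 13 with the bulb covariate, 38 with 6 libraries less WT library 1 and 0 with 6 libraries. The replicate block, fitted although the same-numbered libraries did not deviate together, left 1 call in 6 libraries (0 higher) and 12 in 12 libraries (5 and 7), with 0 and 2 ER chaperones and 0 and 2 heat shock genes. The cause of these shifts was not tested. Settings with the newer method, DESeq2 on 6 libraries, Tia1+/- library 3 left out, or 6 libraries less WT library 1 were chosen after seeing the data. With 3 libraries a group, changes in genes of few counts, such as Rec8, are imprecise.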

Other observations

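Some called genes outside the naming rule, picked after their values were seen, belong with those described above. Ntrk2, which encodes TrkB, the receptor of Bdnf, had 577, 661 and 603 CPM in P301S Tia1+/- and 978, 954 and 887 CPM in WT (log2 fold change -0.61, SE 0.0871, adjusted p = 0.0145 in edgeR), with no overlap. Spry2 and Spred1, which hold back Ras and MAP kinase signals, fell by 0.78 each on the log2 scale (adjusted p = 0.0193 and 0.0357). Dlg1, a postsynaptic scaffold, fell by 0.60 (adjusted p = 0.0145). Derl2, which acts in the removal of misfolded protein from the ER, was even within groups, at 28.4 to 29.1 against 37.0 to 37.9 CPM (-0.38, adjusted p = 0.0331).

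Genes of RNA processing picked in the same way that fell were Cpsf6, a factor of mRNA 3′ end formation (135, 148 and 135 against 207, 219 and 192 CPM, -0.56, adjusted p = 0.0188), the splicing factor Prpf39 (-0.62, adjusted p = 0.0145) and Ythdc1 and Ythdf3, readers of methylated adenosine in RNA (-0.57 and -0.47). Among genes that rose, Ddn, which encodes dendrin of dendrites, had 745, 719 and 728 against 504, 550.3 and 547 CPM (0.45, adjusted p = 0.0488), Ctsf, a lysosomal cathepsin, had 67.8, 66.5 and 69.3 against 56.2, 48.6 and 49.4 CPM (0.40, adjusted p = 0.0469), and Hfe, an iron-handling membrane protein, rose by 0.88 (adjusted p = 0.0357).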
